A study of Mus musculus with 27 samples.

Results

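A set of 10 genes tied to the first blood cells of the embryo were followed through a differentiation of mouse embryonic stem cells (ESCs) toward gonadal progenitors. They were the embryonic globins Hbb-y, Hbb-bh1 and Hba-x, the transcription factors Gata1, Klf1, Tal1 and Gfi1b, the erythropoietin receptor Epor, and the platelet chemokines Ppbp and Pf4. These 10 of the 48795 listed genes were chosen on earlier results of the same data, in which the embryonic globins and Ppbp rose in IM3, 1 of the culture media of the study, and were matched by symbol. Levels in IM3, and differences that involve IM3, IM4 or IM1, are therefore given as a description without a test. Comparisons between the other groups were tested.

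RNA of 9 groups with 3 libraries each was sequenced in bulk, to totals of 35923040 to 84876603 expected counts per library. All 27 libraries came from 1 clone (clone 7) of XY cells of the genotype Tesco-CFP; R26-rtTA on an F1 C57BL/6 x CBA background, so that every group shared the Sertoli cell reporter and the reverse tetracycline transactivator. ESCs were the starting cells. EpiSC cells had spent 2.5 days with activin A at 20 ng/ml, bFGF at 12 ng/ml and serum replacement at 1%. M cells, an early mesoderm, had then received 20 ng/ml bFGF, 10 μM of the phosphoinositide 3-kinase inhibitor LY294002 and 10 ng/ml BMP4 for 36 hours. The intermediate mesoderm (IM) media were applied for 3.5 days and all contained 5 ng/ml bFGF and 20 ng/ml BMP4. IM1 contained nothing else. IM3 added 100 nM retinoic acid (RA), IM2 added RA and 10 ng/ml activin A, IM4 added RA and 0.3 μM CHIR99021, a GSK3 inhibitor that activates WNT signalling, and IM5 added RA, activin A and CHIR99021 together. The iSLC group consisted of IM3 cells with doxycycline-driven Nr5a1 and Dmrt1, which had further been moved to a Sertoli cell medium with testosterone, FSH, EGF, prostaglandin D2, activin A and FGF9 and were sorted for the CFP reporter. Virus, factors, medium, added time and sort therefore all separate it from IM3.

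Primitive red cells arise in the yolk sac from mesoderm that also gives rise to endothelium, and they are the cells that use the embryonic globins. Hbb-y and Hbb-bh1 encode beta-like chains and Hba-x encodes the zeta chain, an alpha-like partner, whereas definitive red cells use the adult genes Hbb-bs, Hbb-bt, Hba-a1 and Hba-a2. GATA1, TAL1, KLF1 and GFI1B are transcription factors of the red cell and megakaryocyte lineages, and EPOR receives the hormone that keeps red cell precursors alive. Ppbp and Pf4 encode CXC chemokines that megakaryocytes pack into platelets.

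Hbb-y (ENSMUSG00000052187) and Hbb-bh1 (ENSMUSG00000052217) lie 8584 bases apart on the minus strand of chromosome 7, at chr7:103851749-103853216 and chr7:103841637-103843164 of GRCm38. Hba-x (ENSMUSG00000055609) lies on the plus strand at chr11:32276400-32278116. Ppbp (ENSMUSG00000029372, chr5:90768518-90770063) and Pf4 (ENSMUSG00000029373, chr5:90772435-90773383) are neighbours on the plus strand, 2371 bases apart. Gata1 lies at chrX:7959260-7978071, Klf1 at chr8:84901928-84905291, Tal1 at chr4:115056426-115071755, Gfi1b at chr2:28609450-28621982 and Epor at chr9:21958897-21963506. No exon of any member overlapped an exon of another gene in GENCODE M21. None of the words of 75 bases, the read length, in Hbb-y, Hbb-bh1 or Hba-x occurred in another globin transcript, so reads of the embryonic globins could be told from those of the adult ones. Hbb-bs and Hbb-bt shared 51.5% and 56.6% of theirs and Hba-a1 and Hba-a2 67.9% and 84.6%, so the split of counts within each adult pair is uncertain. Adult globin levels are therefore given as a sum, and fold changes and calls of a single adult globin depend on the split.

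Upstream sequences are shown for Hbb-y, as the embryonic globin with the largest difference between IM3 and IM1, and for Ppbp and Pf4, which are adjacent but differed in level. They are the bases before the start site in RefSeq (GRCm38.p6), on the strand of the gene from 5′ to 3′, without bases that GENCODE counts as exon. Capitals mark the motifs searched on both strands: the GATA motif (read as AGATAA or AGATAG, and likewise TGATAA or TGATAG), the word CACCC, which KLF factors can bind, and beside these the TATA box TATAAA, the CCAAT box and the nuclear receptor half-site AGGTCA. No marked motifs overlapped.
Hbb-y, chr7:103853217-103853457, minus strand: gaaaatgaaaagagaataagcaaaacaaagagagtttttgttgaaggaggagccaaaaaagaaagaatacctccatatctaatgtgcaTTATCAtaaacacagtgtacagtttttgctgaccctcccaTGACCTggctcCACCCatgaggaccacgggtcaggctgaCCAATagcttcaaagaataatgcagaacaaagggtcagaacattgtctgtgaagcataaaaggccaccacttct
Ppbp, chr5:90768268-90768517, plus strand: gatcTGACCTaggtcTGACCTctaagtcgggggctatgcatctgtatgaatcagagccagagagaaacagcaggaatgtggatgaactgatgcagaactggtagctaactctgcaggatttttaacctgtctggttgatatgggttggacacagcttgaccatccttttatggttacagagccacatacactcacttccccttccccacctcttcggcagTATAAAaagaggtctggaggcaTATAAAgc
Pf4, chr5:90772185-90772434, plus strand: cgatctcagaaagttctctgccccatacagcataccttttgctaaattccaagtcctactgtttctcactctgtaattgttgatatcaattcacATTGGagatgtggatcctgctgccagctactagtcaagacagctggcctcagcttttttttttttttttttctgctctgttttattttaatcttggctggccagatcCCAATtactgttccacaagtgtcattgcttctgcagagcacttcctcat

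A window of 250 bases before the start was found for 9 of the 10 members. The entry for Hbb-bh1 was missing. The GATA motif stood in the windows of 6 members (Hbb-y, Hba-x, Klf1, Tal1, Gfi1b and Epor), against 26.5% of all 32851 promoter windows, and CACCC in those of 7 (the same 6 and Gata1), against 52.0%. The windows of Ppbp and Pf4 held neither. In GENCODE 200 of the 250 bases for Hba-x and 54 of those for Klf1 count as exon, so that TATAAA, both CACCC words and 1 of the 2 GATA words of Hba-x lie inside the transcript by that annotation. TATAAA, present in 12.4% of all windows, was found in Hba-x and at 2 places in Ppbp, and CCAAT, present in 33.8%, in Hbb-y, Klf1, Gfi1b and Pf4. The half-site AGGTCA, present in 14.0% of all windows, was found in Hbb-y and at 2 places in Ppbp, in both on the opposite strand. The pair in Ppbp, with first bases 246 and 235 bases before the start, formed a direct repeat with a spacing of 5 bases, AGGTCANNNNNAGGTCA. Only 3 of the 32851 windows, or 0.00913%, held this repeat, which was searched for after the half-sites had been seen. Matches of letters are not binding sites, and no binding was measured.

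The embryonic globins were detected in every IM library and in almost none of the others. Levels are given as TPM, transcript abundance scaled for gene length and library size, which can be set side by side between genes. A gene at or below 3 counts in a library, which corresponds to 0.0353 to 0.0814 CPM, counts scaled to the library size, depending on the library, was taken as not detectable there. Hbb-y had 2 to 4 counts in the ESC libraries and 0 in every EpiSC, M and iSLC library. Hbb-bh1 reached at most 5 counts outside the IM media, in 1 M library, and Hba-x at most 4, in 1 iSLC library. Since these are bulk RNA samples, more cells that express a gene and more RNA per cell cannot be told apart.

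In the IM media Hbb-y stood at 1.55, 2.21 and 2.10 TPM in IM1, at 1.55, 1.23 and 1.18 in IM2, at 22.1, 26.1 and 28.8 in IM3, at 25.9, 35.3 and 41.4 in IM4 and at 1.95, 3.44 and 2.18 in IM5. Thus IM3 and IM4 overlapped with each other and were above all other libraries, and the ranges of IM1 and IM2 touched, as did those of IM1 and IM5. Hbb-bh1 stood at 12.7, 16.7 and 18.6 TPM in IM1, at 2.70, 2.79 and 3.83 in IM2, at 38.8, 49.0 and 56.6 in IM3, at 62.8, 81.9 and 100.2 in IM4 and at 7.94, 4.91 and 8.58 in IM5. Its 5 IM groups did not overlap and ran in the order IM4, IM3, IM1, IM5 and IM2. Hba-x followed the same order without overlap, with 6.29, 8.33 and 9.02 TPM in IM1, 1.82, 2.86 and 2.11 in IM2, 35.7, 40.4 and 33.6 in IM3, 41.2, 54.4 and 70.6 in IM4 and 5.64, 4.83 and 5.17 in IM5. Summed over the 3 genes the mean was 25.8 ± 4.71 TPM in IM1, 6.69 ± 0.550 in IM2, 110.3 ± 12.1 in IM3, 171.2 ± 41.2 in IM4 and 14.9 ± 1.49 in IM5 (SD, n = 3 each).

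**Figure D1:**
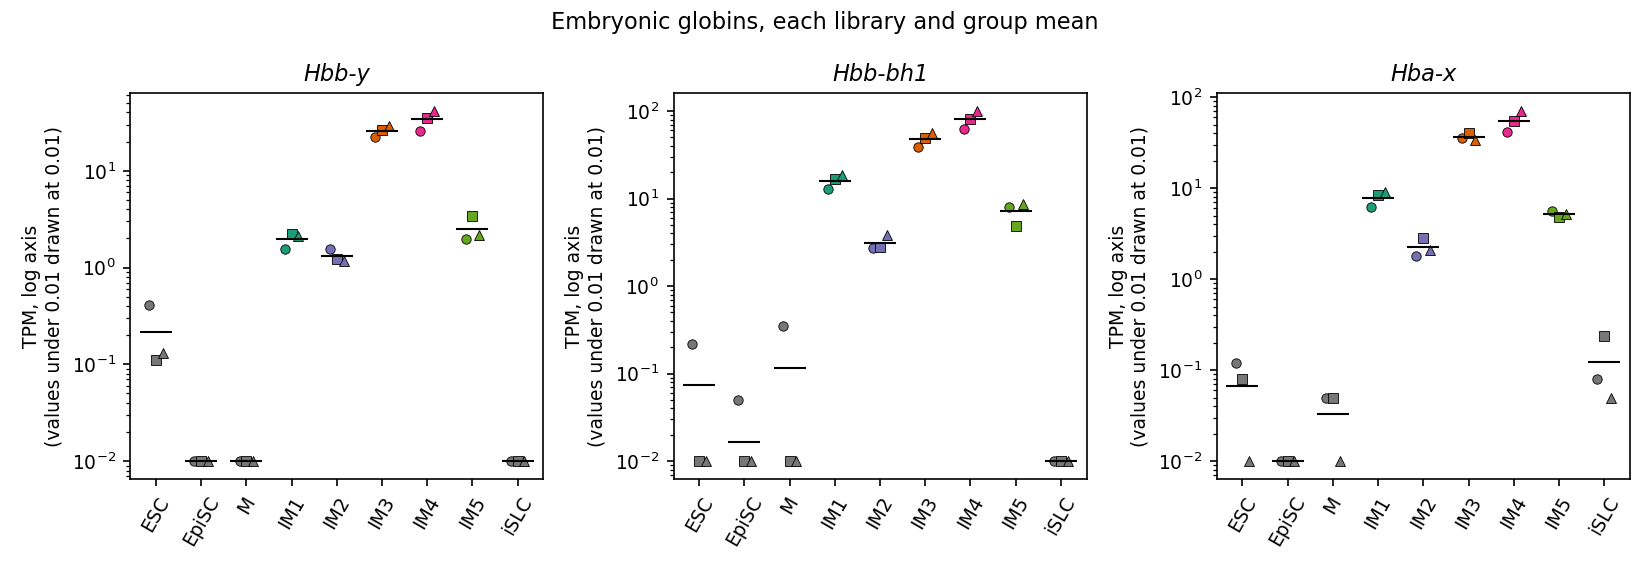
TPM of Hbb-y, Hbb-bh1 and Hba-x on log axes in the 9 groups, with 1 marker per library (circle, square and triangle for replicates 1, 2 and 3) and a line at the group mean, values under 0.01 being drawn at 0.01. The IM3 and IM4 libraries are the highest for all 3 genes, and IM2 is the lowest of the IM media, with overlap of IM1 and IM2 for Hbb-y.

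The make-up of the embryonic globin RNA also differed between the media. Hbb-y made up 10.8%, 11.7% and 10.2% of the TPM of both beta-like genes in the IM1 libraries and 36.3%, 34.7% and 33.7% in the IM3 libraries. The share was 29.2%, 30.1% and 29.3% in IM4, 36.5%, 30.6% and 23.6% in IM2, and 19.7%, 41.2% and 20.3% in IM5. IM1 therefore lay below every other IM library, while the low levels in IM2 and IM5 left a wide spread there. The ratio of Hba-x to the beta-like sum, in TPM, averaged 0.439 ± 0.00225 in IM1, 0.520 ± 0.166 in IM2, 0.506 ± 0.100 in IM3, 0.475 ± 0.0200 in IM4 and 0.543 ± 0.0544 in IM5 (SD, n = 3 each), and the ranges of IM2 and IM3 spanned those of IM1 and IM4.

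The values behind the choice of the genes can be given as fold changes from 1 edgeR model over all 27 libraries. A gene was called when its adjusted p was at most 0.01, its fold at least 2 and its mean normalized count at least 100, and 9 members passed the filter on low counts, Pf4 being left out with 0 to 9 counts per library. IM3 exceeded IM1 in log2 terms by 3.54 ± 0.22 (SE) for Hbb-y, 1.43 ± 0.22 for Hbb-bh1, 2.08 ± 0.18 for Hba-x and 6.70 ± 0.33 for Ppbp, while Tal1 was lower by -1.28 ± 0.15. These 5 of 9 members were past the criteria, where 6.34% of the 20839 genes were, a comparison that the choice of the genes had already used. In IM2, which differs from IM3 by activin A, all 3 globins lay lower (Hbb-y -4.17 ± 0.24, Hbb-bh1 -3.84 ± 0.26, Hba-x -3.94 ± 0.21), being 3 of 9 members past the criteria against 3.8% of all genes. Ppbp differed there by 0.05 ± 0.21. Without the count minimum Gata1 (-4.87 ± 0.83) and Gfi1b (-3.03 ± 0.76) were past the criteria too, as were 7.24% of all genes. The comparisons of IM1, IM2 and IM4 with IM3 share the IM3 libraries, and those of IM4 and IM2 with IM5 share the IM5 libraries.

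IM5 against IM4 is the same addition of activin A in the presence of CHIR99021. The globins again lay lower, by -3.65 ± 0.21 for Hbb-y, -3.38 ± 0.23 for Hbb-bh1 and -3.32 ± 0.19 for Hba-x, and Tal1 lay higher by 1.00 ± 0.15 (log2, SE). With Tal1 close to the fold limit, 4 of 9 members were past the criteria against 4.09% of all genes. Without IM4 replicate 1 or replicate 2 the number was 2, because Hbb-y then missed the count minimum, at log2 differences of -3.81 and -3.60, and Tal1 the fold limit, at 0.84 and 0.98. CHIR99021 without activin A, IM4 against IM3, gave 0 of 9 members past the criteria, where 0.101% of all genes were. The mean of IM3 and IM4 against that of IM1, IM2 and IM5 had 4 of 9 members past the criteria, against 4.21% of all genes, namely Hbb-y (3.87 ± 0.13), Hbb-bh1 (3.01 ± 0.15), Hba-x (3.22 ± 0.12) and Ppbp (2.30 ± 0.16). In IM4 against IM3 alone the differences were 0.45 ± 0.18 for Hbb-y, 0.80 ± 0.21 for Hbb-bh1, 0.63 ± 0.16 for Hba-x and -0.50 ± 0.21 for Ppbp.

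**Figure D2:**
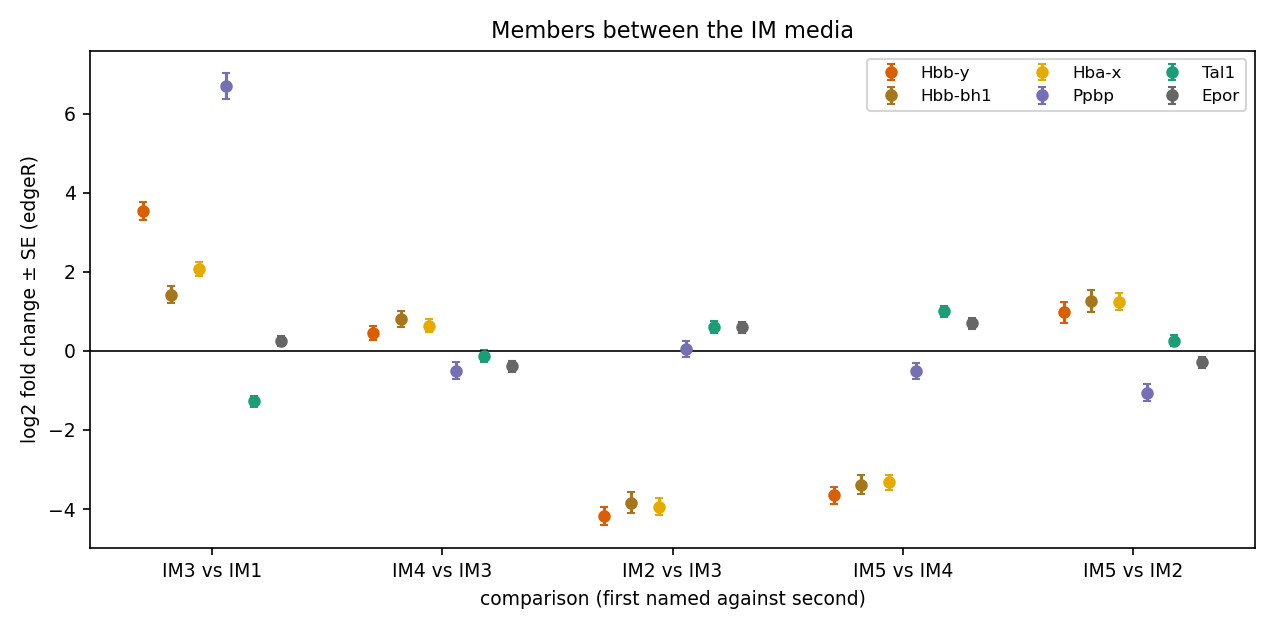
Log2 fold change with its SE from the edgeR model for 6 members in 5 comparisons of IM media, the first named group against the second. The 3 globins lie below 0 in both comparisons that add activin A (IM2 vs IM3, IM5 vs IM4), where Ppbp is at 0.05 and -0.51, and only IM5 vs IM2 was tested.

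The effect of CHIR99021 in the presence of activin A, IM5 against IM2, did not enter the choice of the genes and was tested. Hba-x rose by 1.25 ± 0.23 on the log2 scale (SE, n = 3 per group, edgeR quasi-likelihood test, adjusted p = 0.000661) and Hbb-bh1 by 1.26 ± 0.28 (edgeR adjusted p = 0.00559). For both genes all 3 IM5 libraries were above all 3 IM2 libraries. Hbb-y differed by 0.98 ± 0.27 (edgeR adjusted p = 0.0281), again higher in 3 of 3 libraries, but was not past the criteria. Ppbp moved the other way and fell by 1.05 ± 0.21 (edgeR adjusted p = 0.00173), with every IM5 library below every IM2 library. These were 3 of 9 members called against 0.235% of the 20839 genes, 2 of them higher (0.0432% of all genes) and 1 lower (0.192%). The globins reached the minimum mean count over all libraries through IM3 and IM4, the groups that had led to their choice, so this share is not read as a result about the members.

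Fitted on the IM5 and IM2 libraries alone, Ppbp was the 1 member called, with Hba-x under the count minimum (edgeR adjusted p = 0.00835) and Hbb-bh1 at an adjusted p of 0.0249. Within the model of all libraries the call for Hba-x held when any 1 IM2 or IM5 library was left out. These fits kept the IM3 and IM4 libraries through which Hba-x reached the count minimum, so they do not bear on that part of the call. That for Hbb-bh1 was lost with an offset for gene length (edgeR adjusted p = 0.0127) and without IM2 replicate 1, IM2 replicate 2, IM5 replicate 1 or IM5 replicate 3 (edgeR adjusted p = 0.0368, 0.0311, 0.0354 and 0.0242), and that for Ppbp without IM2 replicate 2, IM5 replicate 1 or IM5 replicate 3 (log2 -1.02, -0.98 and -0.998, edgeR adjusted p = 0.0111, 0.00854 and 0.0111) and with the DESeq2 Wald test (adjusted p = 0.377). The remaining members did not pass: Gata1 2.49 ± 1.07 (edgeR adjusted p = 0.164), Klf1 0.97 ± 0.47 (adjusted p = 0.224), Gfi1b 1.95 ± 0.82 (adjusted p = 0.154), Tal1 0.26 ± 0.14 (adjusted p = 0.295) and Epor -0.29 ± 0.13 (adjusted p = 0.176).

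RNA of adult globins moved with part of this pattern. Counts of Hbb-bs, Hbb-bt, Hba-a1 and Hba-a2 added up to 422, 206 and 1376 in the ESC libraries, 621, 859 and 1188 in M, 276, 699 and 501 in IM3 and 350, 1109 and 888 in IM4. They were 28 to 39 in EpiSC, 41 to 78 in IM1, 10 to 21 in IM2, 23 to 31 in IM5 and 6 to 10 in iSLC. Adult globin RNA was thus high in the 2 IM groups with the most embryonic globin, but also in ESC and M, where the embryonic sum was at most 7 counts. The adult to embryonic count ratio was 0.182, 0.561 and 0.401 in IM3 and 0.205, 0.367 and 0.292 in IM4, against 0.101 to 0.127 in IM1, 0.0663 to 0.113 in IM5 and 0.0971, 0.183 and 0.0960 in IM2, whose replicate 2 lay level with IM3 replicate 1. With Slc4a1, the anion exchanger of the red cell membrane, and Alas2, the erythroid enzyme of heme synthesis, all 6 genes of the adult red blood cell list were above 3 counts in every ESC, M, IM3 and IM4 library, with a summed level of 4.02 to 27.5, 12.5 to 21.3, 6.15 to 19.6 and 8.32 to 19.7 CPM. Elsewhere the sum was 0.373 to 1.38 CPM. Alas2 by itself followed this division only in part and was above 3 counts in every library. It stood at 1.96, 2.20 and 1.98 TPM in IM3 and 1.85, 2.37 and 2.72 in IM4. These lay above the 0.51 to 0.85 of IM1, 0.53 to 0.97 of IM2 and 0.68 to 1.48 of IM5. M, at 0.89, 2.04 and 0.94, was above EpiSC, at 0.24 to 0.60. The iSLC libraries, at 1.41, 1.84 and 1.10, departed from the division and overlapped ESC, at 0.99, 0.17 and 1.20.

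Ptprc, the pan-leukocyte CD45 gene, was divided in the same way, with 13 to 108 counts in ESC, 25 to 116 in M, 26 to 106 in IM3 and 15 to 76 in IM4, and at most 5 counts in any other library. Spi1, which encodes the myeloid factor PU.1, was not, with 10 to 21 counts in ESC and EpiSC, 9 to 12 in IM1 and at most 4 in IM3 and IM4. Csf1r, also on the leukocyte list, was not divided in this way either. It had 85 to 117 counts in ESC and 7 to 32 in M. In the IM media it had 419 to 512 in IM1, 573 to 640 in IM2, 327 to 542 in IM3, 482 to 658 in IM4 and 527 to 795 in IM5. Hbb-bs was called lower in EpiSC against ESC and higher in M against EpiSC, as was Hba-a1 (edgeR log2 -2.35 ± 0.47 and 2.62 ± 0.47). In IM3 against IM1 Hba-a1 was higher by 2.69 ± 0.45 and Hbb-bs by 6.24 ± 0.98. These single-gene values rest on the uncertain split within each pair. In EpiSC, for example, Hba-a1 was assigned 39, 28 and 32 counts and Hba-a2 0 in every library. Whether the adult globin and Ptprc RNA came from the cultured cells was not tested, nor was its part in the embryonic globin values. In IM5 against IM2, both low in adult globin RNA, none of the 6 adult red blood cell genes was called, Hba-a1 differing by 0.996 ± 0.718 (edgeR adjusted p = 0.456).

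**Figure D3:**
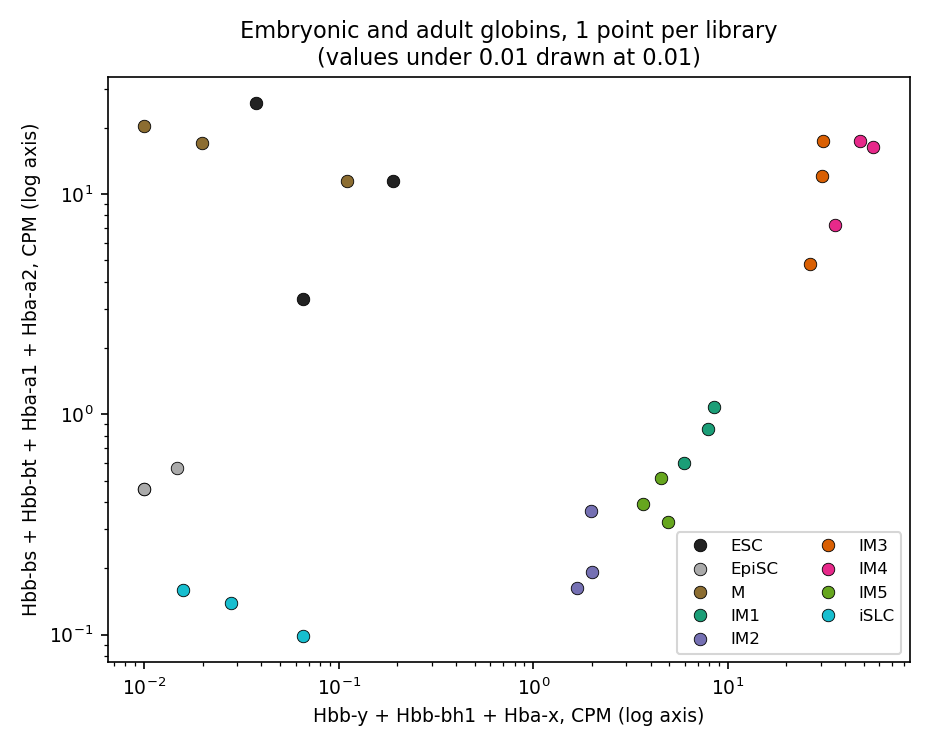
Summed CPM of the 3 embryonic globins (x axis) against that of the 4 adult globins (y axis) in the 27 libraries, both on log axes, with values under 0.01 drawn at 0.01. ESC and M libraries have adult globin RNA with almost no embryonic globin RNA, while all IM libraries have mostly the embryonic kind. Its share of the globin counts is 64.1% to 84.6% in IM3 and 73.1% to 83.0% in IM4. In IM1, IM2 and IM5 the share is 88.7% to 90.8%, 84.6% to 91.2% and 89.8% to 93.8%.

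Gata1 and Klf1, on which erythroid gene expression depends, were low throughout. Gata1 was highest in ESC, at 0.73, 0.94 and 1.28 TPM, and stood at 0.16, 0.16 and 0.15 in IM1, 0, 0 and 0.06 in IM2, 0.16, 0.15 and 0.37 in IM3, 0.15, 0.24 and 0.43 in IM4 and 0.03, 0.06 and 0.07 in IM5. Its 3 IM2 libraries held 0, 0 and 1 counts and its IM5 libraries 2, 4 and 2, below IM3 with 9, 6 and 15, IM4 with 7, 15 and 18 and IM1 with 11, 14 and 11. Among the IM media it was thus lowest in those with activin A, as Hbb-bh1 and Hba-x were, at counts too low for the count minimum, while IM3 and IM1 differed by 0.46 ± 0.47 (log2, SE). Klf1 did not exceed 0.57 TPM in any library, and neighbouring groups in its order of means overlapped throughout. Gfi1b was at most 0.66 TPM, reached in ESC, and at 0 counts in all iSLC libraries. Over all 9 groups ESC and EpiSC had the most Gata1 and Gfi1b among the means. Across the group means of log2 CPM the correlation with Hbb-y was 0.97 for Hbb-bh1, 0.98 for Hba-x, 0.84 for Ppbp and 0.72 for Tal1, but -0.18 for Gata1, -0.18 for Klf1 and 0.07 for Gfi1b. This is a description over 9 points that share libraries and depth.

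Tal1, which acts earlier in the formation of blood and endothelium, was measured at 3.37, 3.34 and 3.55 TPM in IM1, 2.57, 2.56 and 2.64 in IM5, 2.12, 2.30 and 2.34 in IM2, 1.75, 1.34 and 1.39 in IM3 and 0.99, 1.33 and 1.61 in IM4. It was at most 0.44 TPM in ESC and EpiSC, 0.19 in M and 0.10 in iSLC. Only IM3 and IM4 overlapped among the IM media, and these, with the most globin, had the least Tal1. Against M, Tal1 was higher by 4.56 ± 0.20 in IM1 and 3.29 ± 0.21 in IM3 (log2, SE).

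Epor was the 1 member called in EpiSC against ESC. It stood at 0.93, 1.29 and 1.20 TPM in ESC and at 4.09, 3.84 and 3.37 in EpiSC, a rise of 1.73 ± 0.16 on the log2 scale (SE, n = 3 per group, edgeR adjusted p = 3.85e-10). It was called in every alternative fit, as 1 of 9 members against 8.07% of all genes. Hbb-y had 4, 2 and 2 counts in ESC and 0 in EpiSC, too few for a fold change, and became the second member past the criteria when the count minimum was dropped (18.4% of all genes). The other 7 members were not called, Ppbp coming closest at 12, 18 and 13 counts in ESC against 3, 2 and 2 in EpiSC (-2.94 ± 1.12, edgeR adjusted p = 0.026). After the rise Epor stayed between 3.37 and 7.56 TPM in all 24 later libraries, highest in IM2 (6.92, 7.14 and 7.56) and lowest in IM4 (3.48, 3.61 and 3.79) among the IM media.

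From EpiSC to M, 0 of 9 members were called, where 14.5% of all genes were, by edgeR as by the DESeq2 Wald test, and 5 members had an unadjusted p under 0.05. Low counts decided this for 2 of them. Without the minimum of 100 counts Tal1 fell by 1.44 ± 0.23 (edgeR adjusted p = 4.98e-06) from 53, 50 and 80 to 25, 14 and 16 counts. Gfi1b fell by 2.43 ± 0.53 (edgeR adjusted p = 0.000283) from 33, 20 and 21 to 2, 3 and 6 counts, and with that rule 28% of all genes were called. Epor differed by 0.40 ± 0.13 (edgeR adjusted p = 0.00984), below the fold limit.

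**Figure D4:**
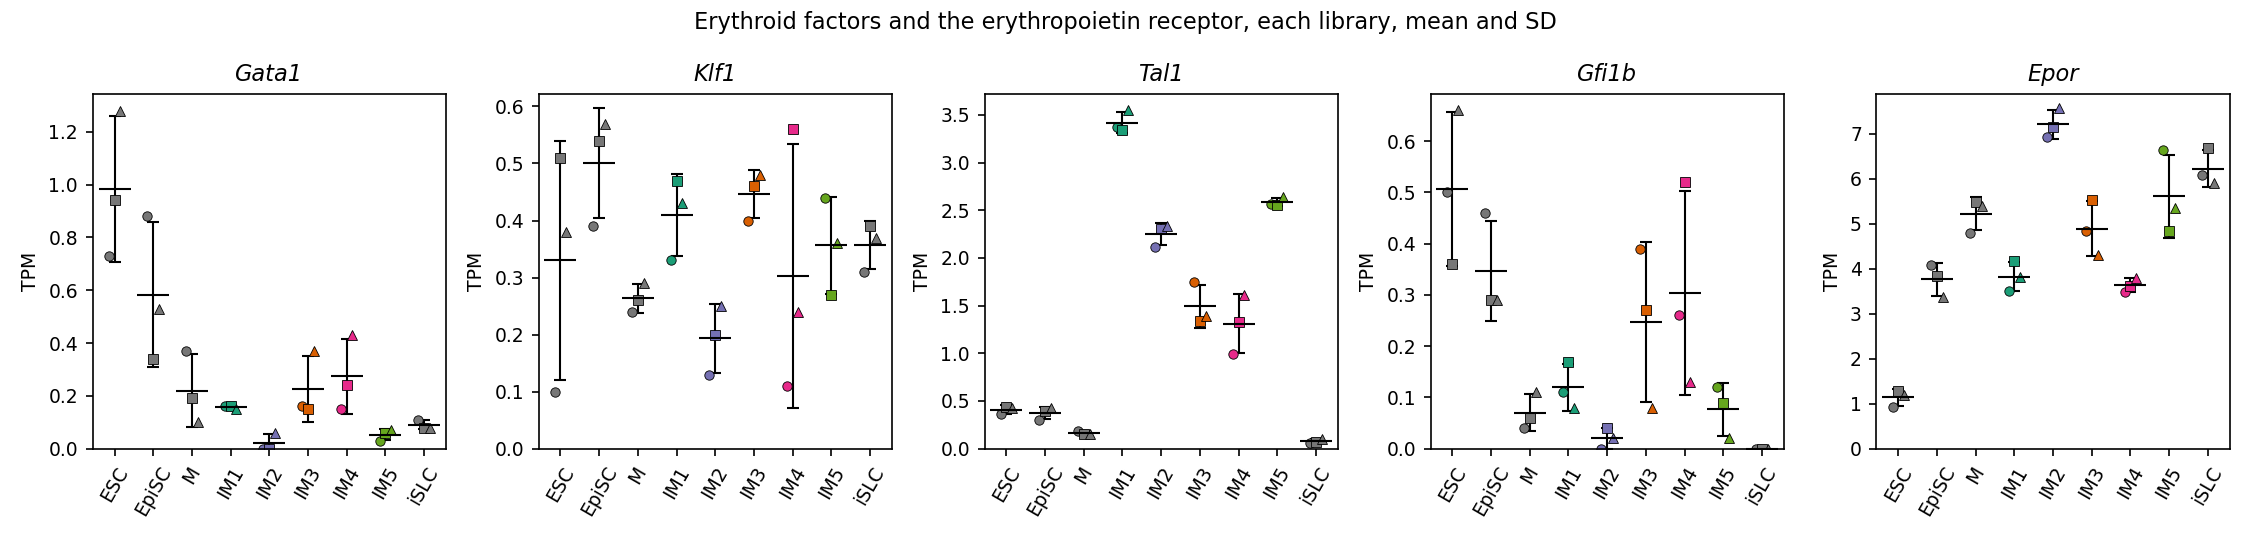
TPM of Gata1, Klf1, Tal1, Gfi1b and Epor in the 9 groups on linear axes that start at 0, with 1 marker per library (circle, square and triangle for replicates 1, 2 and 3), the mean as a bar and the SD as an error bar. Tal1 is highest in IM1 and Epor in IM2. Over the 9 groups the means of Gata1 and Gfi1b are highest in ESC and that of Klf1 in EpiSC. Among the IM media the means of Gata1 and Gfi1b are highest in IM4 and IM3, with libraries that overlap IM1. Gata1, Klf1 and Gfi1b are at most 0.43, 0.56 and 0.52 TPM in IM3 and IM4.

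Ppbp resembled the globins over the 9 groups, with correlations of 0.84, 0.78 and 0.80 to Hbb-y, Hbb-bh1 and Hba-x, but was also high in IM2 and IM5, where the globins were low. It stood at 83.9, 89.1 and 81.0 TPM in IM2, 88.6, 78.0 and 87.6 in IM3, 65.4, 54.2 and 56.4 in IM4 and 33.1, 48.2 and 36.8 in IM5, thus in all 12 libraries that received RA. IM2 and IM3 overlapped, IM4 lay below both and IM5 below IM4. In IM1, without RA, the libraries held 75, 14 and 1 counts, or 2.05, 0.31 and 0.03 TPM, and replicate 1 stood apart. The IM3 to IM1 ratio of mean TPM was 106 with all 3 IM1 libraries and 498 without replicate 1, and the log2 difference 6.70 and 8.76. ESC held 12, 18 and 13 counts and EpiSC, M and iSLC at most 8, so the high level lay in the RA media alone.

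Pf4, next to Ppbp, had at most 9 counts and 0.93 TPM in any library, the 3 IM1 libraries having 6, 3 and 7 counts and the IM3 libraries 3, 3 and 2. The wider list of 19 megakaryocyte and platelet genes was divided, with 12 genes above 3 counts in every IM3 library and 4 at or below 3 in all of them. In the 27 libraries Gp9, a subunit of the von Willebrand factor receptor, had at most 4 counts, the collagen receptor Gp6 at most 3 and Treml1 at most 3. Itga2b, the platelet integrin that is also found on early blood progenitors, was at 9.23, 7.93 and 9.63 TPM in iSLC and 5.47, 5.65 and 5.58 in IM1, above IM3 at 1.32, 2.24 and 2.17. Clec1b, a platelet receptor, had 87, 69 and 65 counts in IM3 and 0 in M, but also 92, 172 and 134 in IM1, with overlapping TPM in IM1 and IM3. Rab27b, which acts in granule secretion, had 636, 433 and 527 counts in IM3 and 951, 906 and 897 in IM2 against 6, 6 and 9 in M. Itgb3, the partner of Itga2b, ran from 435 to 714 counts in IM3 and from 2333 to 2591 in IM2, and Fli1, a factor of endothelium and megakaryocytes, from 381 to 531 in IM3 against 6 to 8 in M. Several genes of the list were thus present where Ppbp was high, though Gp9, Gp6, Treml1 and Pf4 were not detectable in IM3. Itgb3 and Fli1 were also present where Ppbp was low. Itgb3 had 6.11 to 7.35 TPM in IM1 and 7.28 to 8.11 in iSLC, against 3.26 to 3.99 in IM3. For Fli1 the values were 5.56 to 6.00 TPM in IM1 and 7.45 to 8.10 in iSLC, against 5.28 to 5.47 in IM3. The other CXC chemokine genes of the cluster stayed low, with at most 18 counts for Cxcl3, in IM3, and 26 for Cxcl1, in iSLC. With a divided platelet list, and with Gata1 and Klf1 at most 0.43 and 0.56 TPM in IM3 and IM4, the set is called here by its leading genes, the embryonic globins and Ppbp, rather than by a cell type.

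**Figure D5:**
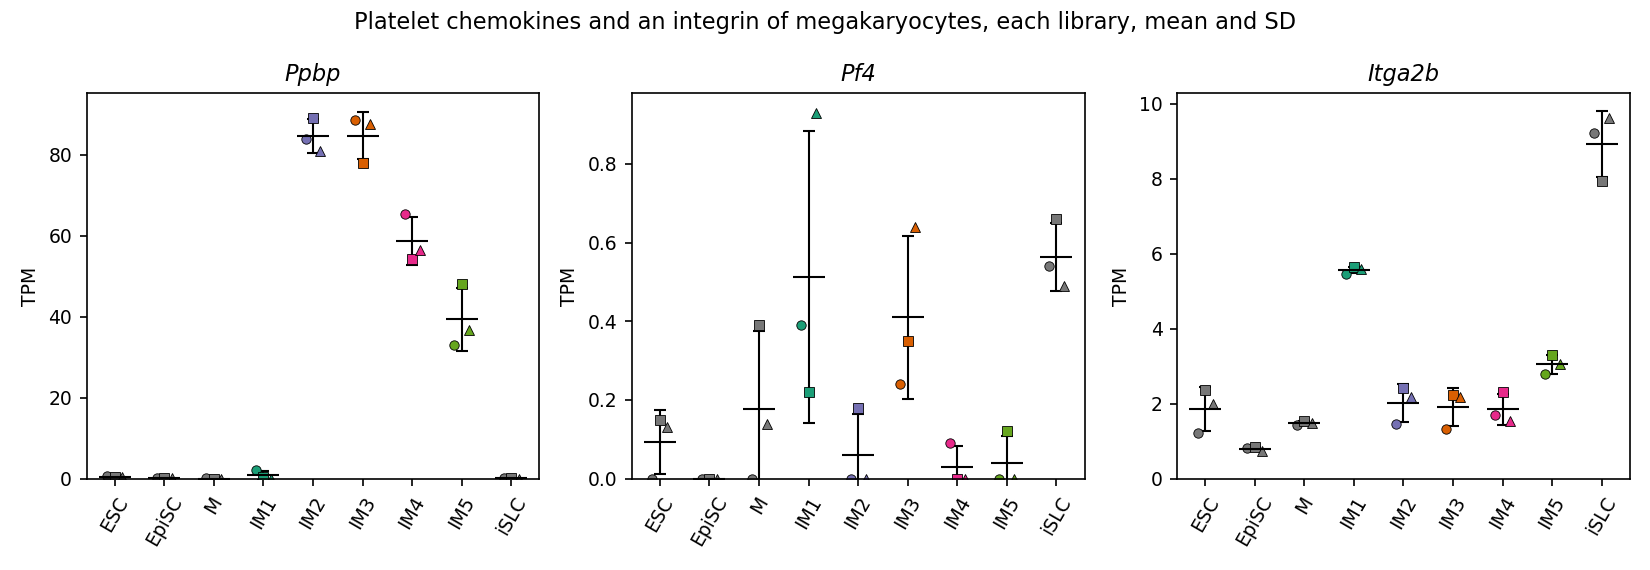
TPM of Ppbp, Pf4 and Itga2b in the 9 groups on linear axes that start at 0 and differ in scale, with 1 marker per library (circle, square and triangle for replicates 1, 2 and 3), the mean as a bar and the SD as an error bar. Ppbp is between 33.1 and 89.1 TPM in the 4 media with RA, and Pf4 does not exceed 0.93 TPM.

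The step from M to the IM media and the step to iSLC frame these levels. Against M, where Hbb-y was at 0, it was at least 9.34-fold higher in IM1 and at least 110.3-fold higher in IM3, taking 3 counts per library as the limit in M. In IM1 against M 3 of 9 members were past the criteria (Hbb-bh1, Hba-x and Tal1, where 15.7% of all genes were, or 5 of 9 and 27.9% without the count minimum), and in IM3 against M 5 of 9 (the 3 globins, Ppbp and Tal1, against 14.9%). In iSLC Hbb-y was at least 132.0-fold and Hbb-bh1 at least 235.5-fold lower than in IM3, both being at 0 in all 3 libraries. Hba-x lay lower by -8.33 ± 0.33, Ppbp by -9.26 ± 0.43 and Tal1 by -4.27 ± 0.23 (log2, SE), so that 5 of 9 members were past the criteria against 19.2% of all genes, and Epor differed by 0.37 ± 0.13. Because iSLC cells were sorted for CFP, loss of cells in the sort and loss of RNA within cells cannot be told apart. In IM2 against IM1, RA and activin A together, Hbb-bh1 (-2.41 ± 0.27) and Hba-x (-1.86 ± 0.22) lay lower and Ppbp higher (6.75 ± 0.32, or 8.81 without IM1 replicate 1), 3 of 9 members past the criteria against 3.51% of all genes, or 5 of 9 against 6.74% without the count minimum, and Hbb-y differed by -0.63 ± 0.27.

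Lists of related genes differed in how they ran beside the globins. In IM5 against IM2, where 0.235% of all genes were called, 0 genes were called in each list, which is no result about lists of this size: 13 erythroid transcription factors and partners (median log2 difference 0.14), 13 tested genes of the erythroid membrane and cytoskeleton (0.02), 14 of heme and iron handling (0.05), 11 of Epo, Kit and Thpo signalling (-0.04) and 14 of the megakaryocyte and platelet list (-0.03), beside a median of 0.00 over all genes. In the described comparisons the erythroid membrane list had medians on the side of the globins, at 0.80 in IM3 against IM1, -0.78 in IM2 against IM3 and -1.14 in IM5 against IM4. The 6 adult red blood cell genes did so too, at 3.33, -4.83 and -4.40, as did the 5 tested globins outside the members, which include the adult ones, at 3.39, -5.07 and -4.88. The heme and iron list was near 0 in all 3, at 0.13, -0.01 and -0.01, and the erythroid factors lay at -0.17, 0.38 and 0.24. In IM3 against IM1, given as a description, 2 membrane genes were past the criteria upward, Ank1 (2.29 ± 0.09) and Gypc (1.84 ± 0.09), and 2 downward, Dmtn (-1.35 ± 0.12) and Add2 (-1.07 ± 0.10). None of the 14 heme and iron genes was, and of the 13 factors only Gata2, a factor of blood progenitors, was, at -1.06 ± 0.06. Kit, the receptor for stem cell factor, was lower by -1.35 ± 0.07 and Cish, a feedback target of STAT5, by -1.18 ± 0.09. Of the platelet list Rab27b was higher by 1.45 ± 0.10 and Itga2b and Vwf were lower, by -1.75 ± 0.14 and -1.03 ± 0.20.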

How the data were processed

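Per the submitters' processing notes and the study's methods, paired-end reads of 75 bases from libraries of total RNA were trimmed with cutadapt 1.9.1, aligned with STAR 2.5.2a and quantified with RSEM 1.3.0 on GRCm38, and strand use in counting is not given in the sources used here. The deposited files hold expected counts, which are estimates that need not be whole, and the authors' TPM and FPKM per gene, of which FPKM served only as an alternative. RSEM shares reads among similar genes by likelihood, which can move counts between near-identical copies. Gene symbols were matched to 48349 of 48795 Ensembl IDs. Library totals ran from 35923040 to 84876603 expected counts.

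Expected counts were rounded and fitted with edgeR 4.0.16 (TMM, filterByExpr, quasi-likelihood test, all 27 libraries, group as the only term, Benjamini-Hochberg adjustment over 20839 genes) in R 4.3.3, and DESeq2 1.42.0 gave alternatives. The model was tested on simulated counts of IM5 against IM2 with 200 changed genes at a log2 difference of 1.5, of which 100% were called. The changed genes were picked at a mean of 200 normalized counts or more over all libraries and at 100 or more in IM2, above the globins there. Their counts were thus set above the count minimum by choice. The simulation therefore says nothing about the globins or the members under 100 counts. The fold criterion was 2, the adjusted p limit 0.01 and the minimum mean normalized count 100 over all libraries and in a compared group. CPM used TMM library sizes, and correlations a prior count of 2. Libraries of a group differed by more than sampling noise (chi-square per degree of freedom 3.64 to 53.8). The highest value was between IM5 replicates 1 and 2, and IM5 is 1 side of the tested IM comparison. The p-values measure the spread between the libraries, described as triplicate RNA samples. The SD and SE values include that spread too, whereas the fold values given as "at least", which rest on the count floor, do not. The members, the gene lists and the rule for named genes (all 10 members, the adult red blood cell genes, and from each list the 5 largest changes past the criteria) were chosen with earlier results of these data known. Genes named outside that rule (Ptprc, Spi1, Csf1r, Gp9, Gp6, Treml1, Clec1b, Itgb3, Fli1, Cxcl1 and Cxcl3) come from the lists and were named after their values were seen. Promoter windows were taken from RefSeq, and gene positions and transcripts from GENCODE M21.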

Additional observations from a re-analysis of the deposited data

How the results depend on the processing

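The numbers of called members changed by more than 1.5 times under few settings. Fitting only the groups compared left 1 of the 3 members called in IM5 against IM2, Ppbp. Without the count minimum the number rose to 2 in EpiSC against ESC, 2 in M against EpiSC, 5 in IM1 against M, 5 in IM2 against IM1 and 5 in IM2 against IM3, and without the fold minimum to 1 in M against EpiSC. Leaving out 1 library gave 1 to 3 called members in IM5 against IM2 and 2 to 4 in IM5 against IM4, and the IM3 to IM1 ratio of Ppbp ran from 71.8 to 498. In 2 cases within the tested comparisons a sign turned on fewer than 6 counts: Hbb-bh1 in EpiSC against ESC was 1.78 without ESC replicate 1 (range -2.87 to 1.78 over the libraries left out), and in M against EpiSC -1.77 without M replicate 1 (range -1.77 to 3.97, log2). In the described comparisons signs turned too, for members not past the criteria. Examples are Gata1 in IM3 against IM1 (range -0.05 to 0.68) and Klf1 in IM5 against IM4 (range -0.12 to 1.10). A total of 274 other combinations of a member count or level ratio with a setting stayed within 1.5 times or 1 SD of the reported value. Over all genes the count minimum mattered most, with 101 genes called in IM5 against IM2 without it, against 49, and 3826 in EpiSC against ESC, against 1682. Same-numbered libraries did not deviate together (mean correlation 0.00242, against -0.00123 for different numbers), and a fit with the replicate block again called 3 members in IM5 against IM2, with 49 genes in all, and 1 in EpiSC against ESC. Members under 100 counts, among them Gata1, Klf1, Gfi1b and Pf4, could not pass the count minimum.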

Other observations

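The IM media that carried embryonic globin RNA also carried endothelial and visceral endoderm RNA, in other proportions. Of 12 hemangioblast and endothelial genes, 8 were past the criteria downward in IM3 against IM1 and 0 upward, with a median log2 difference of -1.55. Among them were Sox17 (-2.54 ± 0.14), Sox18 (-2.34 ± 0.12), Cd34 (-2.17 ± 0.12), Cdh5, which encodes VE-cadherin (-1.97 ± 0.10), and Tie1 (-1.76 ± 0.09, SE). Of 11 visceral endoderm genes, 2 were lower, Sox17 and Foxa2 (-1.15 ± 0.10), and the summed level of 708 to 809 CPM in IM3 overlapped the 696 to 795 CPM of IM1. In IM2 the sum was 909 to 1104 CPM, with Afp, the alpha-fetoprotein gene, higher than in IM3 by 1.76 ± 0.14, Sox17 by 1.54 ± 0.15 and Foxa2 by 1.22 ± 0.10. The sum was 27.3 to 78.7 CPM in ESC, EpiSC, M and iSLC. Of 12 leukocyte genes 7 were tested and 0 were past the criteria in IM3 against IM1.

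Over the 9 group means of log2 CPM, the genes outside the members whose pattern was most like Hbb-y were Nfe2 (Pearson r = 0.98), Abca4 (0.97), Lhx9 (0.97), Tmem33 (0.97) and Dlx4 (0.96). Nfe2, a transcription factor of the red cell and platelet lineages, was at 33, 27 and 14 counts in IM3 and 27, 25 and 36 in IM4, but also at 30, 13 and 21 in IM1. Those most like Ppbp were Slc4a9 (0.99), Sfrp5 (0.97), Chst10 (0.97), Fam241a (0.97) and Csn3 (0.97). Slc4a9 averaged 4.44, 5.05, 4.14 and 2.84 CPM in IM2, IM3, IM4 and IM5 and 0.0731 in IM1, and Csn3, the kappa-casein gene, 24.1, 12.3, 13.8 and 21.1 CPM and 0.189. Each likeness is a description over 9 means with no test.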
